A study of Mus musculus with 6 samples.

Results

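The latrophilins, teneurins and FLRTs are 3 small families of adhesion proteins that bind one another across synapses, and 10 of their genes among the 32286 genes counted are described here. The genes were found by their symbols in the count table of every mouse and are the latrophilins *Adgrl1*, *Adgrl2* and *Adgrl3*, the teneurins *Tenm1*, *Tenm2*, *Tenm3* and *Tenm4*, and the FLRTs *Flrt1*, *Flrt2* and *Flrt3*. Single nuclei RNA sequencing had been run on whole cerebella of 3 *Pcp2-ATXN1[82Q]* mice (SCA1 mice), which carry a human *ATXN1* transgene with a lengthened CAG repeat, and of 3 wild-type littermate controls (WT mice) without it. The line is on a C57BL/6 background, all mice were 12 weeks old, and each mouse gave 1 library. The *Pcp2* promoter drives the transgene in Purkinje cells (PCs), so any difference in another cell type is one in cells that the promoter does not target. Nuclei were grouped by the cell type label that the authors deposited for each of them, and their counts of unique molecular identifiers (UMIs, each standing for 1 captured transcript) were summed per mouse and label.

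A latrophilin is an adhesion G protein-coupled receptor whose long extracellular part reaches across the synaptic cleft. Its lectin and olfactomedin domains bind teneurins and FLRTs on the facing membrane, and receptor, teneurin and FLRT can be held in 1 complex. Teneurins are large single-pass proteins with a barrel-like extracellular fold that also bind each other and help to match pre- and postsynaptic partners. FLRTs are leucine-rich repeat proteins that bind UNC5 netrin receptors as well, and act in repulsion and adhesion of migrating neurons. In the cerebellum these proteins are studied at the synapses that granule neuron parallel fibers and climbing fibers make on PCs, where latrophilins are postsynaptic.

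Of 24 labels, 13 held at least 10 nuclei in every mouse, and these 13 held 45042 of 45473 nuclei. The 11 other labels held 431 nuclei together and were not analysed further. Granule neurons (label Neuron.Slc17a7.Gabra6) made up 37532 nuclei, PCs (Neuron.Gad1Gad2.Pcp2) 292, Bergmann glia (BG, Astrocyte.Gja.Slc1a3) 1243, velate astrocytes (VA, Gja1.Htra1) 1014 and oligodendrocytes (OL, Oligodendroyte.Trf.Il33) 1384. The other neuronal labels are called by their last part: Lgi2 (240 nuclei), Pvalb-Nefh (1224), Pvalb-Rab3b (458), Pvalb-Cadm1 (289) and Pvalb-Chrm2 (263) are GABAergic, and Nrgn (757) and Sln (104) carry the glutamate transporter gene *Slc17a6* in their label. All 7 PC markers, 5 of 5 granule, 4 of 4 BG, 4 of 4 astrocyte and 5 of 5 OL markers were highest in the label that bears their name. Of the 4 genes listed for oligodendrocyte precursors, *Cspg4* (33.1 CPM) and *Olig1* (68.9 CPM) were highest in the OL label. *Pdgfra* was highest in Endothelial_Tip.Dcn.Nnat (93.0 CPM, against 70.0 in OL) and *Vcan* in VA (249.0 CPM, against 195.4 in OL). Of the molecular layer interneuron genes, *Sorcs3* was highest in Pvalb-Nefh (2026 CPM) and *Nxph1* in Pvalb-Cadm1 (4512 CPM). *Eomes* and *Otx2os1*, which mark unipolar brush cells, were highest in Sln, though *Tbr1*, also listed for them, was highest in Nrgn (3.24 CPM), and the 3 Golgi cell markers in Lgi2. In the label Endothelial_Tip.Dcn.Nnat (242 nuclei), the fibroblast genes *Dcn*, *Col1a2*, *Lum* and *Slc6a13* were all highest. Of 4 endothelial genes, *Flt1* (80.3 CPM) and *Ly6c1* (3.86) were also highest there, while *Cldn5* and *Pecam1* stood at 1.52 and 1.93 CPM, so the label was not taken as 1 cell type. It is called Dcn.Nnat below.

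Each library held 3354 to 10897 nuclei and 18916647 to 98366627 UMIs, with a median nucleus of 2246.5 to 7253 UMIs. The library numbers put mice 1 of both genotypes in a lower range, taken as a first batch, and the 4 others in a second. Any pair of mice shared 7 to 44 cell barcodes, at most 0.42% of the nuclei of the smaller library, and nothing was removed for it. PC nuclei were the deepest, with medians of 40007, 16186 and 58288 UMIs for SCA1 mice 1 to 3 against 43849, 18903 and 45318 for WT mice 1 to 3.

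The genes differ widely in size, which matters because nuclear RNA is rich in unspliced transcripts and reads on introns were counted. On GRCm38, the build that mm10 names, *Adgrl1* spans 41.9 kb at chr8:83900105-83941954 on the plus strand, *Adgrl2* 175.0 kb at chr3:148815583-148990555 on the minus strand and *Adgrl3* 805.0 kb at chr5:81020138-81825133 on the plus strand. The teneurin genes are all long: *Tenm1* covers 901.3 kb at chrX:42527866-43429126 (minus), *Tenm2* 1229.3 kb at chr11:36006656-37235964 (minus), *Tenm3* 616.3 kb at chr8:48227682-48843951 (minus) and *Tenm4* 739.8 kb at chr7:96171246-96911093 (plus). The FLRT genes are short, with 13.7 kb for *Flrt1* at chr19:7092001-7105729 (minus), 93.0 kb for *Flrt2* at chr12:95692226-95785215 (plus) and 20.6 kb for *Flrt3* at chr2:140650914-140671469 (minus). For 9 of the 10, all but *Flrt2*, another counted gene lay over part of the span on the opposite strand. *Flrt1* lies wholly inside *Macrod1* and *Flrt3* inside *Macrod2*. The strand setting of the counting is not given in the sources used here, and how far reads of a member and of such a partner were kept apart was not tested.

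The start regions of the members differ as much as their sizes. RefSeq windows of the 250 bases before a transcript start (GRCm38.p6) were matched for 9 of the 10 genes, in 12 windows, and 4 of them are shown, of 2 receptors and 2 ligands, whose windows lay at or near the annotated start of the gene and differed in CG pairs. CG pairs, the sites of DNA methylation that cluster in the promoters of many widely used genes, are in capitals. They numbered 21 in the window of *Adgrl1* (chr8:83899848-83900097), more than in 83.7% of the 32851 windows of all genes, and 36 in the window before the first RefSeq start of *Adgrl3* (chr5:81020321-81020570), more than in 97.4%. They numbered 4 in the window of *Tenm4* (chr7:96170994-96171243), above 37.8% of windows, and 12 in that of *Flrt2* (chr12:95691976-95692225), above 66.5%. All 4 are read along the plus strand, the strand of these genes.
Adgrl1: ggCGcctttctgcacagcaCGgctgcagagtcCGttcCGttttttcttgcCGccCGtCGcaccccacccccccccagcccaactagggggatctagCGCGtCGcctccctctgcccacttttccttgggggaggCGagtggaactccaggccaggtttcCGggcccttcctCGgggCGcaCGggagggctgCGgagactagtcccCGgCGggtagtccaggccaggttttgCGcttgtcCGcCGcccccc
Adgrl3: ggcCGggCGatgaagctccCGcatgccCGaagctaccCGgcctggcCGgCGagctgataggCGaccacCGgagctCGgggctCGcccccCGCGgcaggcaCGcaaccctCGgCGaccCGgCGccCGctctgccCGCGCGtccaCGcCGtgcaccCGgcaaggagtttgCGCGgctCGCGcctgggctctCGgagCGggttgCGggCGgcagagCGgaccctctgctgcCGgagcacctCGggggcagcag
Tenm4: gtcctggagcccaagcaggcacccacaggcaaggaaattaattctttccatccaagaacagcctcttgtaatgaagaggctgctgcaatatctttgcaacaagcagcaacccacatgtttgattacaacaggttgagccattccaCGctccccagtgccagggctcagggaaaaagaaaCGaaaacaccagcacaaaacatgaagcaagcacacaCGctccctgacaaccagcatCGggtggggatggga
Flrt2: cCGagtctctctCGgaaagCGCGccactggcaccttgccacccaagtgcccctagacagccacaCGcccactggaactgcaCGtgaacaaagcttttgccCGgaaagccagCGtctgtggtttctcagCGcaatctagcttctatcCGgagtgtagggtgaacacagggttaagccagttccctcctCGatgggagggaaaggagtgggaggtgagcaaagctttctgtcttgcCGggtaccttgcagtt
The median window of all genes held 6 CG pairs. The run TATAAA, searched on both strands, was in 12.4% of all windows and in 3 of the 12 member windows, those of *Adgrl2* and *Tenm1* and another one of *Adgrl3*. The windows of *Adgrl2*, *Tenm1*, *Tenm2* and *Tenm3* lay well inside the annotated gene and are not shown.

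The levels of these receptors and ligands differed between cell types. They are given as CPM, counts per 1000000 UMIs of a mouse and label, brought to 1 scale over all 78 sums with TMM factors of 0.576 to 1.26, and each is given as mean ± SD over the 6 mice of both genotypes. Because labels were assigned from the RNA of the same nuclei, the levels are a description and were not tested. The 10 genes had their highest mean in 6 different labels: granule neurons for *Adgrl1* and *Tenm1*, PCs for *Adgrl2*, *Tenm4* and *Flrt3*, BG for *Adgrl3*, Nrgn for *Tenm2*, Sln for *Tenm3* and Dcn.Nnat for *Flrt1* and *Flrt2*. Between neighbours in the order of labels, the 6 mice of one lay wholly above the 6 of the next in 9 of 120 steps, so that most orders below hold only over several places.

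**Figure D1:**
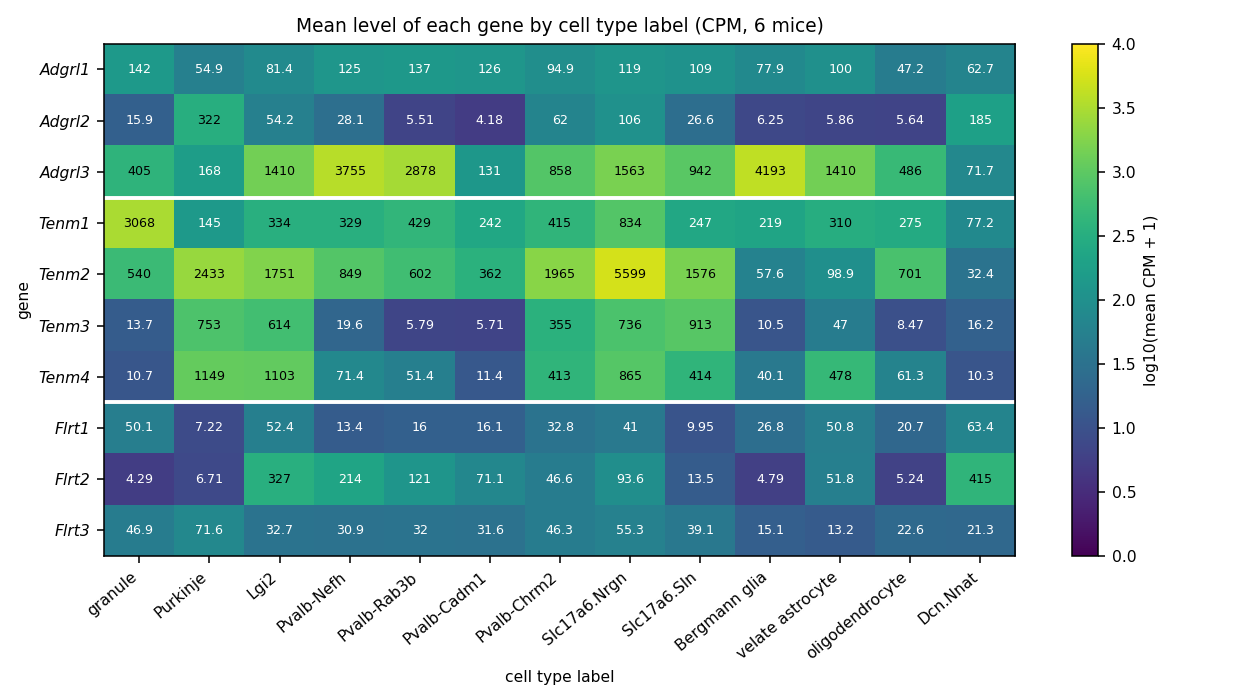
Mean CPM over 6 mice of the 10 genes (rows) in the 13 labels (columns), with colour on the scale log10(mean CPM + 1). Each gene has its own brightest labels: *Adgrl3* in BG (4193 CPM), *Tenm1* in granule neurons (3068), *Tenm2* in Nrgn (5599) and *Adgrl2* in PCs (321.6).

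*Adgrl1*, the broadly used latrophilin that binds α-latrotoxin, was the most even of the 10. Granule neurons held 151.0, 109.2 and 131.2 CPM in SCA1 mice 1, 2 and 3, against 158.7, 152.0 and 147.9 CPM for WT mice 1, 2 and 3 (141.7 ± 18.4, n = 6). Pvalb-Rab3b (137.0 ± 16.1 CPM), Pvalb-Cadm1 (125.7) and Pvalb-Nefh (125.5) came next, and PCs (54.9 ± 14.6) and OL (47.2 ± 22.1) were last. The highest and lowest labels differed by 3.00-fold, and each label overlapped its neighbour in the order.

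*Adgrl2*, the latrophilin studied at synapses on PC and hippocampal dendrites, had by contrast its highest mean in PCs. Its level there was 320.3, 313.2 and 401.8 CPM in the SCA1 mice against 272.4, 343.3 and 279.0 CPM in the WT mice (321.6 ± 47.4, n = 6). Dcn.Nnat followed with 185.3 ± 84.8 CPM and a range of 95.1 to 286.9, which reached into the range of PCs. The lead over Dcn.Nnat rests in part on the TMM factors, which were 0.576 to 0.807 in PCs and 1.09 to 1.26 in Dcn.Nnat. With library size only, PCs held 224.1 CPM and were still the highest label. In WT mice 2 and 3, however, *Adgrl2* was a larger share of the UMIs of Dcn.Nnat (55 of 151864 and 73 of 239557) than of PCs (185 of 829529 and 179 of 1114126). Nrgn held 105.6 ± 27.6 CPM, granule neurons 15.9, and BG, VA, OL, Pvalb-Rab3b and Pvalb-Cadm1 between 4.18 and 6.25. PCs thus stood 77.0-fold above Pvalb-Cadm1, the lowest label, and granule neurons stood 2.54-fold above BG, the next label down, with no overlap between their mice.

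*Adgrl3*, the latrophilin that pairs with FLRT3 and teneurins at glutamatergic synapses, had the highest CPM of the 3 latrophilins in BG and most interneurons. The same held in VA (92.1% of the latrophilin sum), OL (89.4%) and Nrgn (87.1%). BG held 2568, 3589 and 5849 CPM in the SCA1 mice against 2152, 4352 and 6651 CPM in the WT mice (4193 ± 1788, n = 6). Pvalb-Nefh (3755 ± 1130 CPM, 2502 to 5411) was within that range and Pvalb-Rab3b (2878 ± 1006) overlapped it. The mice of the first batch were the lowest in BG and mice 3 of both genotypes the highest, and the genotypes overlapped. Library and mouse cannot be told apart in these data, and the cause of the spread was not tested. VA and Lgi2 stood at 1410 CPM each, granule neurons at 404.7 ± 108, and PCs at 167.8 ± 85.6. PCs held 227.2, 224.0 and 181.1 CPM in the SCA1 mice against 120.9, 16.7 and 236.9 in the WT mice, all below the lowest granule neuron value, a 2.41-fold step between the means. Pvalb-Cadm1, at 130.5 CPM, was far from the other Pvalb labels for this gene, of which Pvalb-Chrm2 held 858.4.

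**Figure D2:**
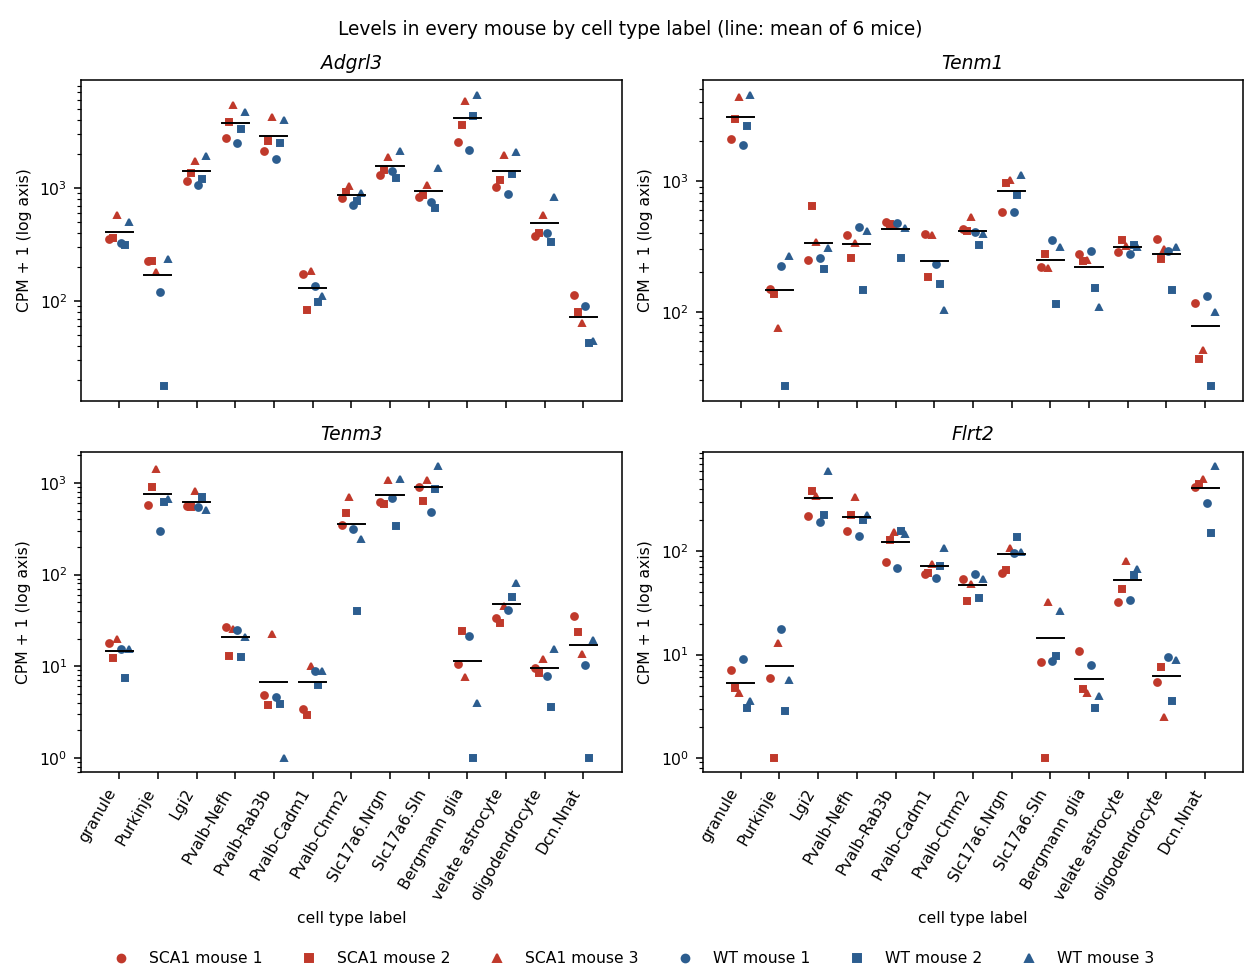
CPM + 1 on a log axis of *Adgrl3*, *Tenm1*, *Tenm3* and *Flrt2* in each of the 6 mice (points, by genotype) in 13 labels, with a line at the mean of 6. *Tenm1* in granule neurons lies above every other label in all mice, while the highest labels of *Adgrl3*, *Tenm3* and *Flrt2* overlap their neighbours.

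As a family, the latrophilins summed to 4278 CPM in BG, where 97.5% was *Adgrl3*, and to 3909 CPM in Pvalb-Nefh (95.8% *Adgrl3*). PCs held 544.4 ± 77.5 CPM, of which 59.9% was *Adgrl2*, 29.5% *Adgrl3* and 10.6% *Adgrl1*. Granule neurons had almost the same sum, 562 CPM, made up of 71.2% *Adgrl3* and 25.9% *Adgrl1*. Pvalb-Cadm1 was nearly even between *Adgrl1* (49.1%) and *Adgrl3* (49.2%) within a sum of 260 CPM.

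*Tenm1*, a teneurin, was the only one of the 10 genes whose values in the highest label did not overlap those in the next. Granule neurons held 2086, 2961 and 4363 CPM in the SCA1 mice against 1877, 2602 and 4522 CPM in the WT mice (3068 ± 1132, n = 6). The lowest of these lay above the highest of Nrgn, the next label, at 834.4 ± 225 CPM, a step of 3.68-fold, and Nrgn in turn lay 1.94-fold above Pvalb-Rab3b without overlap. Again both mice of the first batch were lowest and mice 3 of both genotypes highest. The 11 other labels fell between 77.2 CPM (Dcn.Nnat) and 429.2 CPM (Pvalb-Rab3b), with PCs at 144.7 ± 88.5. *Tenm1* is X-linked, and *Xist*, the RNA of the inactive X chromosome, reached at most 0.485 CPM in granule neurons and 5 to 21 UMIs in all tested labels of any mouse.

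In droplet data, RNA set free from broken nuclei can enter other droplets, and granule neurons made up most nuclei here. The granule neuron marker *Gabra6*, a GABA-A receptor subunit, stood in the 12 other labels at 5.60 to 17.1% of its granule neuron level. *Tenm1* exceeded that share in all 6 mice in Nrgn (27.2% of its granule neuron level against 6.0% for *Gabra6*) and in Pvalb-Chrm2 (13.5% against 6.84%). The granule marker *Rbfox3*, however, was at 29.4% in Nrgn and 17.2% in Pvalb-Chrm2, above *Tenm1* in both. In Nrgn the granule markers *Fat2* (5.72%), *Cbln3* (14.8%) and *Reln* (12.4%) were below *Tenm1*. In Pvalb-Chrm2 *Cbln3* (15.9%) was above it, and *Fat2* (6.43%) and *Reln* (6.11%) were below. In BG (7.14% against 14.0%), VA (10.1% against 16.8%), OL (8.97% against 17.1%) and Dcn.Nnat (2.52% against 9.56%) *Tenm1* was below *Gabra6* in every mouse, and in PCs (4.71% against 5.91%) in 5 of 6. In these 5 labels its mean share was also below those of the 4 other granule markers, and the part of free RNA in its values was not tested. *Tenm2* was also under the share of *Gabra6* in BG (10.7%) and Dcn.Nnat (6.0%) on average, while *Adgrl1* lay above it in all mice in 12 of 12 labels and *Adgrl3* in 11.

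*Tenm2*, a partner of latrophilins at synapses and the teneurin with the highest label mean, was highest in Nrgn. Nrgn held 4716, 5634 and 7223 CPM in the SCA1 mice against 4859, 3357 and 7804 CPM in the WT mice (5599 ± 1665, n = 6). PCs followed with 2382, 2008 and 3552 CPM in the SCA1 mice against 1732, 1952 and 2972 CPM in the WT mice (2433 ± 700). A single value joined the ranges of these labels, SCA1 mouse 3 in PCs, which lay above WT mouse 2 in Nrgn. Pvalb-Chrm2 (1965 CPM), Lgi2 (1751) and Sln (1576) came next, granule neurons held 539.5, and VA (98.9), BG (57.6) and Dcn.Nnat (32.4) were last, after a 3.66-fold step below Pvalb-Cadm1.

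*Tenm3* and *Tenm4*, which act in matching of neuronal partners and in myelination respectively, shared a set of neurons. *Tenm3* was highest in Sln, at 905.2, 635.6 and 1082 CPM in the SCA1 mice against 480.5, 850 and 1524 CPM in the WT mice (912.8 ± 366, n = 6). PCs held 752.9 ± 386 CPM, Nrgn 736 ± 301, Lgi2 613.9 ± 125 and Pvalb-Chrm2 354.7 ± 225, all with overlapping mice. Below these the level dropped to 47.0 CPM in VA and, 2.39-fold further and without overlap, to 19.6 in Pvalb-Nefh, with the 6 remaining labels between 5.71 and 16.2.

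*Tenm4* was found in the same neurons and in VA. Its level in PCs was 974.5, 945.6 and 1548 CPM in the SCA1 mice against 802.1, 925.9 and 1696 CPM in the WT mice (1149 ± 374, n = 6). Lgi2 stood at 1103 ± 307 CPM within the same range, followed by Nrgn (865.3), VA (478.1), Sln (414.4) and Pvalb-Chrm2 (413.2). A 5.79-fold step without overlap separated Pvalb-Chrm2 from Pvalb-Nefh at 71.4 CPM, and granule neurons (10.7) and Dcn.Nnat (10.3) were lowest. Across the 13 labels, the log2 levels of *Tenm3* and *Tenm4* had r = 0.88, the highest among all pairs of members, followed by *Tenm2* and *Flrt3* (0.82). *Adgrl2* with *Adgrl3* and *Tenm2* with *Flrt1* were the lowest pairs, at −0.36 each. These correlations are over 13 labels from the same 6 libraries, so depth and free RNA are shared by all points.

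The teneurin sum was 8035 ± 2397 CPM in Nrgn (69.6% *Tenm2*), 4479 ± 1349 in PCs, 3802 in Lgi2 and 3632 ± 1303 in granule neurons. PCs carried *Tenm2* (54.6%), *Tenm4* (25.6%) and *Tenm3* (16.4%), while granule neurons carried *Tenm1* (84.2%) and *Tenm2* (15.1%). In VA, 49.6% of a sum of 934 CPM was *Tenm4*.

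*Flrt1*, of the FLRT family, was spread widely, with 63.4 ± 16.4 CPM (41.7 to 82.0) in Dcn.Nnat, 52.5 in Lgi2, 50.8 in VA and 50.1 ± 10.0 in granule neurons, and was lowest in PCs at 7.22. *Flrt1* lies inside *Macrod1*, which also had the pattern most like it (r = 0.94). The ranges of all neighbouring labels overlapped for *Flrt1*.

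*Flrt2*, which binds UNC5 receptors and latrophilins, was highest in Dcn.Nnat, at 417.8, 453.4 and 502.1 CPM in the SCA1 mice against 296.4, 151.3 and 668.1 CPM in the WT mice (414.9 ± 177, n = 6). Lgi2 (326.9 ± 153 CPM), Pvalb-Nefh (214.4 ± 69.9) and Pvalb-Rab3b (121.2) followed with overlap. A 3.46-fold step separated Pvalb-Chrm2 (46.6) from Sln (13.5), and PCs (6.71), OL (5.24), BG (4.79) and granule neurons (4.29) held little of it.

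*Flrt3*, a ligand of ADGRL3 and of UNC5 receptors, was highest in PCs, but over a wide range. Its level there was 30.4, 107.2 and 92.3 CPM in the SCA1 mice against 33.6, 65.0 and 101.3 CPM in the WT mice (71.6 ± 34.0, n = 6). Nrgn held 55.3 CPM, granule neurons 46.9, and BG (15.1) and VA (13.2) were last. Both mice of the first batch were the lowest in PCs, and the same held in 8 of the 13 labels for *Flrt3*. Over all 13, the median log2 difference of the first batch from the second was −0.86. Fewer labels had such a split for *Adgrl3* (5), *Flrt2* (5) and *Tenm2* (4), while *Flrt1* (6) and *Adgrl1* (5) were higher in the first batch. This split was counted for the members only. Without the share over all genes, the counts do not show a trait particular to the members. The part of the batch in these levels was not tested.

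The FLRT sum was 499.6 ± 189.8 CPM in Dcn.Nnat (81.4% *Flrt2*), 412 in Lgi2 (76.9% *Flrt2*), 258.6 in Pvalb-Nefh (82.2% *Flrt2*), 101.3 in granule neurons and 85.5 ± 29.1 in PCs. In PCs 80.5% of it was *Flrt3*, and granule neurons were split between *Flrt1* (49.6%) and *Flrt3* (45.9%). The sum was lowest in BG (46.7 CPM) and OL (48.5), while VA, also glia, held 115.7.

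Between genes, levels can also be set per length of the gene, since introns were counted. Whether the counts here grow with gene span was not tested. Per 100000 bases of gene span, the highest labels stood at 520.9 CPM for *Adgrl3* in BG, 461.9 for *Flrt1* and 446.1 for *Flrt2* in Dcn.Nnat, 455.4 for *Tenm2* in Nrgn, 340.5 for *Tenm1* and 338.5 for *Adgrl1* in granule neurons. The tops of *Flrt3* (348.3), *Adgrl2* (183.8) and *Tenm4* (155.2) in PCs and of *Tenm3* in Sln (148.1) were on the same scale. Within PCs, *Flrt3* thus came first per 100000 bases, ahead of *Tenm2* (197.9), *Adgrl2* (183.8), *Tenm4* (155.2), *Adgrl1* (131.2) and *Tenm3* (122.2). By CPM alone, *Tenm2* (2433) stood far above *Flrt3* (71.6) there, so this order depends on the division by span. *Adgrl3* (20.8), *Tenm1* (16.1) and *Flrt2* (7.22) were last. The scale takes reads to fall evenly over introns.

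The genes whose pattern was most like a member's were found by Pearson's r of log2(mean CPM + 1) across the 13 labels among 13647 genes. For *Tenm1* they were *Gm12027* (0.97), *Lrrc3b* (0.96) and *Rbfox3* (0.96), the last a granule neuron marker used above. For *Tenm3* they were *Epha6* (0.97), an ephrin receptor, *Hrh2* (0.94), a histamine receptor, and *Unc5d* (0.93), a netrin and FLRT receptor that was also among the partner genes listed. For *Tenm4* they were *Gm15414* (0.98), which overlaps it on the other strand, *Egfem1* (0.94) and *Slc2a2* (0.90), and for *Tenm2* *R3hdm1* (0.94), *Khdrbs2* (0.94) and *Banf2* (0.93). *Adgrl3* was most like *Gm16054* (0.97), again an overlapping antisense gene, then *Grid1* (0.89), a delta glutamate receptor, and *Gm11417* (0.87). *Adgrl1* was nearest to *A730081D07Rik* (0.93), *Pck2* (0.89) and *Nsmaf* (0.89), and *Adgrl2* to *Sh3pxd2a* (0.95), *Ankrd33b* (0.92) and *Cyb561* (0.92). After *Macrod1*, *Flrt1* was nearest to *Prr16* (0.86) and *Maf* (0.85), *Flrt2* to *Kirrel* (0.87), *Acadsb* (0.87) and *Ccnd2* (0.86), and *Flrt3* to *Mtmr7* (0.94), *Erlin1* (0.94) and *Dffb* (0.92).

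Whether the transgene goes with other levels of these genes was asked next, by setting SCA1 against WT mice within each label. Sums of each label were fitted with batch and genotype as terms by edgeR's quasi-likelihood test, with Benjamini-Hochberg adjustment over all genes tested in the label, and from here CPM are scaled within the label's own fit. Of 130 combinations of a member and a label, 111 passed the filter on low counts. *Adgrl2* was too low in 6 labels, *Flrt2* in 4 (BG, PCs, Sln and OL), *Flrt1* in 3 (PCs, Pvalb-Cadm1 and Sln), *Tenm3* in 3 (Dcn.Nnat, Pvalb-Cadm1 and Pvalb-Rab3b), *Tenm4* in 2 and *Flrt3* in 1. In bulk sums of nuclei, less RNA in each nucleus and fewer nuclei that hold it cannot be told apart. The fits give differences between 3 and 3 mice, and nuclei were not taken as replicates.

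With edgeR, 0 of the 111 passed an adjusted p of 0.05, beside 0.00156% of all gene and label combinations (2 of 128055), and 4 had an unadjusted p under 0.05. These were *Tenm3* in PCs, VA and Pvalb-Chrm2 and *Tenm1* in Pvalb-Cadm1. DESeq2 called 1 of the 111, *Tenm3* in PCs, beside 0.0674% of all combinations, with 3 at an unadjusted p under 0.05. limma-trend called 0 of the 111, with 4 at an unadjusted p under 0.05, and its share over all combinations is not given here. The SCA1 mice all lay above the WT mice in 2 combinations (background 2.57%) and all below in 2 (background 2.62%), 3.60% of the 111 together. By member, the median log2 fold change over labels ran from −0.14 (*Adgrl1*, below 0 in 10 of 13 labels) to 0.12 (*Adgrl3*), with *Tenm2* at 0.10 (above 0 in 10 of 13) and *Tenm3* at 0.11 (above 0 in 8 of 10).

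**Figure D3:**
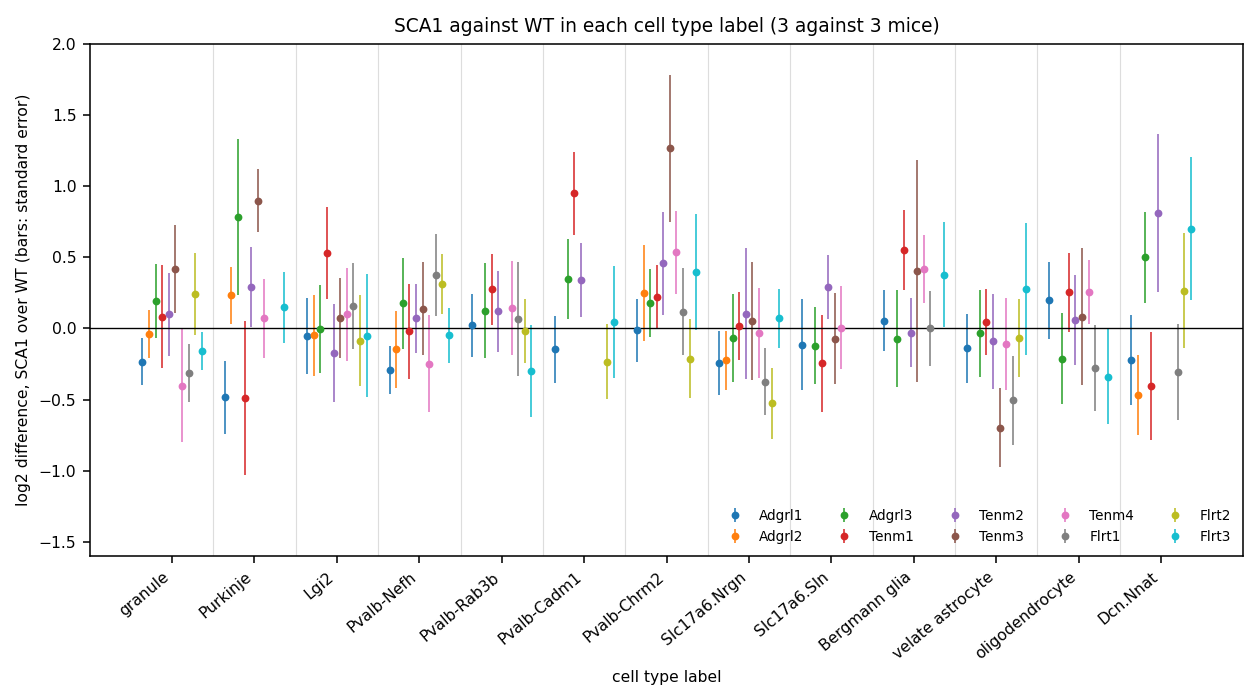
log2 fold change of SCA1 over WT (y axis, bars are the SE of the fit) of each member in each label (x axis) where it passed the filter, from 3 and 3 mice. The 111 points lie on both sides of 0 and none passed the threshold in edgeR's test, with *Tenm3* in Pvalb-Chrm2 highest at 1.27 and *Tenm3* in VA lowest at −0.70.

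In PCs, the cells that express the transgene, *Tenm3* had the largest difference of the 8 members tested. It stood at 412.5, 662.8 and 982.8 CPM in SCA1 mice 1, 2 and 3, against 214.6, 443.6 and 453.9 CPM for WT mice 1, 2 and 3. SCA1 mouse 1 lay below WT mice 2 and 3, so the groups overlapped, but within the first batch and within the second the SCA1 mice were higher, by 0.94 and 0.87 on the log2 scale. The means were 686 ± 286 and 370.7 ± 135 CPM (n = 3 each), a log2 fold change of 0.90 with an SE of 0.22, an unadjusted p of 0.00199 and an adjusted p of 0.238 by edgeR. DESeq2 gave a log2 fold change of 0.88 with an adjusted p of 0.0378, in a label where it called 0.778% of all genes. In the same label edgeR called 0 of 9821 genes. Without a batch term edgeR gave an adjusted p of 1.00, and leaving out any single mouse gave log2 fold changes of 0.73 to 1.05. With the mouse number in place of batch, and without a filter on low counts, *Tenm3* in PCs passed edgeR's threshold. Those fits called 1.75% and 1.04% of all genes in PCs. Same-numbered mice correlated at 0.67, 0.067 and 0.50 in PCs, so the numbers were not taken to pair the mice.

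Those *Tenm3* values rested on 1171, 759 and 1659 UMIs in the SCA1 mice against 698, 337 and 432 UMIs in the WT mice, of which a single nucleus gave 10.2 to 23.2%. Within a mouse, *Tenm3* was uneven among PC nuclei, and its lower quartile was 0 CPM in 5 of 6 mice. The median nucleus held 211.5, 36.4 and 358.3 CPM in the SCA1 mice against 42.1, 67.1 and 66.3 CPM in the WT mice. The 90th percentile lay at 1382, 2607 and 3118 CPM in the SCA1 mice and at 636, 1033 and 708 CPM in the WT mice, which were all lower. A UMI of *Tenm3* was seen in 70.8, 51.9 and 89.7% of PC nuclei of the SCA1 mice and 55.3, 58.5 and 62.1% of the WT mice.

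The other teneurins of PCs differed less. *Tenm2* held 1713, 1456 and 2440 CPM in the SCA1 mice against 1237, 1385 and 2004 CPM in the WT mice, overlapping (1870 ± 510 against 1542 ± 407, log2 fold change 0.29, SE 0.28, adjusted p = 0.999 by edgeR). *Tenm4* held 701.0, 685.6 and 1063 CPM in the SCA1 mice against 573.0, 656.8 and 1143 CPM in the WT mice (log2 fold change 0.07, SE 0.28). *Tenm1*, at 106.4, 97.8 and 50.9 CPM in the SCA1 mice against 158.3, 18.4 and 177.6 CPM in the WT mice, gave a log2 difference of −0.49 with an SE of 0.54 (adjusted p = 0.999 by edgeR), and of 0.49 without WT mouse 3. The 5 granule neuron markers moved with it, with sums of 208.5, 140.6 and 45.0 CPM in the PC sums of the SCA1 mice and 338.1, 51.3 and 273.2 CPM in those of the WT mice, and their part in the *Tenm1* values was not tested.

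Of the latrophilins in PCs, *Adgrl1* stood at 39.8, 32.3 and 24.9 CPM in the SCA1 mice against 53.5, 48.7 and 33.6 CPM in the WT mice. Only SCA1 mouse 1 lay above a WT mouse, and the log2 fold change of −0.49 (SE 0.25) had an adjusted p of 0.831 by edgeR. *Adgrl2*, the main latrophilin of PCs, held 230.4, 227.1 and 276.1 CPM in the SCA1 mice against 194.6, 243.5 and 188.1 CPM in the WT mice (244.5 ± 27.4 against 208.7 ± 30.3, log2 fold change 0.23, SE 0.20, adjusted p = 0.994 by edgeR). WT mouse 2 lay between the SCA1 mice, so these groups overlapped as well.

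*Adgrl3* in PCs varied most between the WT libraries. It held 163.5, 162.4 and 124.4 CPM in the SCA1 mice against 86.4, 11.8 and 159.7 CPM in the WT mice, and edgeR's log2 fold change was 0.78 (SE 0.55) with an adjusted p of 0.960. The paper names *Adgrl3* among the top upregulated genes of SCA1 PCs. Its test took nuclei as units and was not run here, whereas the fit here compares mice. WT mouse 2 had 9 UMIs in all, and of the UMIs in WT mice 1 and 3, a single nucleus gave 44.1% and 36.2%. The log2 fold change was 0.30 without WT mouse 2 and 1.92 without WT mouse 3. The median nucleus held 132.9, 69.6 and 94.2 CPM in the SCA1 mice against 32.1, 0 and 0 CPM in the WT mice.

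Of the FLRTs, *Flrt3* alone passed the filter in PCs, at 21.8, 77.7 and 63.4 CPM in the SCA1 mice against 24.0, 46.1 and 68.3 CPM in the WT mice (log2 fold change 0.15, SE 0.25). Here both mice of the first batch were low and the genotypes overlapped fully. *Flrt1* (1.3 to 11.1 CPM) and *Flrt2* (0 to 12.0 CPM) were near the limit of the depth in both genotypes. The median log2 fold change was 0.19 over the 8 members tested in PCs and 0.02 over all 9821 genes tested there.

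**Figure D4:**
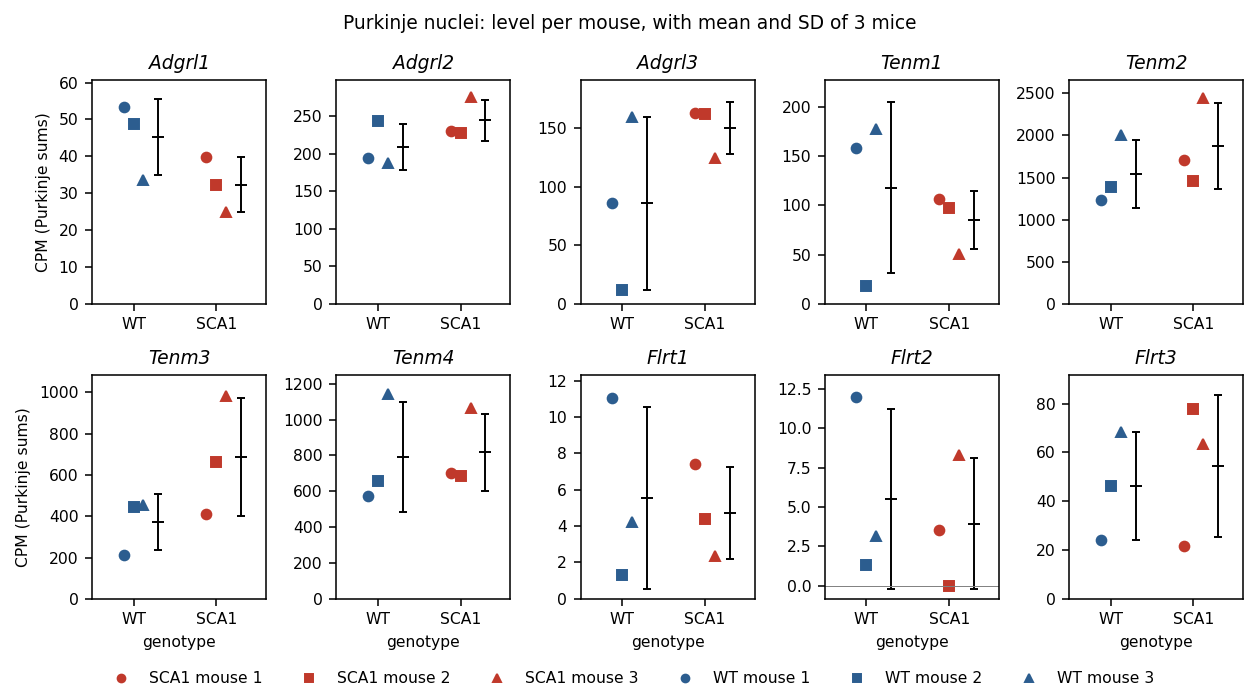
CPM in the PC sums of each mouse (points) with mean ± SD of 3 SCA1 and 3 WT mice for the 10 genes. The SCA1 points of *Tenm3* (412.5 to 982.8) overlap the WT points (214.6 to 453.9), and the 3 SCA1 points of *Adgrl3* lie close together while the WT points run from 11.8 to 159.7.

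Marker genes in the PC sums differed as well. The 7 PC markers summed to 11340 to 15776 CPM in the SCA1 mice against 16480 to 23226 CPM in the WT mice without overlap, with 4 of the 7 lower in all SCA1 mice. The paper reports lower *Calb1*, *Rgs8* and *Itpr1* RNA in SCA1 mice. This sum is therefore no gauge of how much PC RNA a sum held. The 4 BG markers summed to 17.8 to 70.7 CPM in the SCA1 mice against 62.0 to 100.2 CPM in the WT mice. The part of either in the member values was not tested.

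Shares of PC nuclei with a UMI were compared after each nucleus was thinned to 3000 UMIs, which left 65, 51 and 28 nuclei of the SCA1 mice and 76, 35 and 25 of the WT mice. *Adgrl3* was then seen in 32.3, 39.2 and 35.7% of PC nuclei in the SCA1 mice against 23.7, 11.4 and 24.0% in the WT mice, without overlap, as also in granule neurons. *Adgrl2* was seen in 49.2, 43.1 and 46.4% and in 28.9, 42.9 and 12.0%, where WT mouse 2 lay just under the SCA1 range. Among all genes in thinned PC nuclei, 5.46% were higher in all SCA1 mice and 2.57% lower. The two-sided exact permutation test gave p = 0.1 for both, the smallest that 3 against 3 mice allow, and before thinning the mean shares of *Adgrl3* were 73.8 and 45.0% (exact permutation p = 0.2). *Tenm3* was seen in 47.7, 31.4 and 60.7% of thinned SCA1 nuclei and 27.6, 45.7 and 28.0% of thinned WT nuclei, overlapping, while *Tenm2* (60.8 to 92.9%) and *Tenm4* (58.8 to 92.9%) were seen in most. *Gabra6*, which PCs should lack, was seen in 10.8, 19.6 and 0% of thinned SCA1 PC nuclei and 21.1, 2.86 and 4% of thinned WT PC nuclei. Over all labels, thinned shares did not overlap in 9 of 130 combinations, 5 higher and 4 lower in SCA1 mice (background 3.51% higher, 2.8% lower). Without thinning this held for 2, *Flrt3* in Dcn.Nnat and *Tenm2* in Pvalb-Cadm1, both higher (background 3.3% higher, 0.357% lower).

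Outside PCs, the combinations in which the groups did not overlap were small or thinly supported. *Tenm3* in Pvalb-Chrm2 stood at 373.9, 518.1 and 745.7 CPM in the SCA1 mice against 348.2, 45.1 and 264.1 CPM in the WT mice (545.9 ± 187 against 219.1 ± 156). The log2 difference by edgeR was 1.27 with an SE of 0.52 (adjusted p = 1.00), but 0.10 within the first batch and 2.03 within the second. It was 0.71 without WT mouse 2 and 1.94 without either mouse of the first batch. WT mouse 2 had 8 UMIs of it, and 1 nucleus held 73.4% of all its UMIs for SCA1 mouse 3 and 84.2% for WT mouse 3.

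*Tenm3* in VA was lower in the SCA1 mice, at 34.4, 30.8 and 44.4 CPM against 44.8, 58.2 and 81.1 CPM in the WT mice, with SCA1 mouse 3 just under WT mouse 1 (log2 fold change −0.70, SE 0.27, unadjusted p = 0.0265 by edgeR). *Adgrl1* in Pvalb-Nefh held 131.3, 104.6 and 113.1 CPM in the SCA1 mice against 154.1, 141.3 and 132.3 CPM in the WT mice, again nearly touching (log2 fold change −0.29, SE 0.17, unadjusted p = 0.117 by edgeR). *Tenm4* in BG held 42.1, 45.3 and 44.3 CPM in the SCA1 mice against 35.3, 35.7 and 27.1 CPM in the WT mice (log2 fold change 0.41, SE 0.24, unadjusted p = 0.111 by edgeR). In each of these 3 the groups did not overlap, and none passed the adjusted threshold.

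*Tenm1* in Pvalb-Cadm1, at 443.5, 204.7 and 403.9 CPM in the SCA1 mice against 267.1, 183.0 and 108.4 CPM in the WT mice, overlapped between genotypes at a log2 difference of 0.95 with an SE of 0.29 (adjusted p = 1.00 by edgeR). The granule neuron markers summed there to 848.4, 213.5 and 346.0 CPM in the SCA1 mice against 648.7, 271.6 and 105.6 CPM in the WT mice, and their part was not tested. *Tenm1* in granule neurons, where it was highest, held 2071, 2950 and 4070 CPM in the SCA1 mice against 1888, 2546 and 4198 CPM in the WT mice (log2 fold change 0.08, SE 0.37). *Adgrl3* in BG, where it was highest, held 2502, 3539 and 5290 CPM in the SCA1 mice against 2130, 4194 and 6111 CPM in the WT mice (log2 fold change −0.07, SE 0.34). In granule neurons, where its level was far lower, it held 351.8, 362.4 and 539.0 against 328.1, 303.2 and 461.1 CPM (0.19, SE 0.26). In both genes the libraries of mice 3 were the highest of their genotype. In Nrgn, the highest label of *Tenm2*, the log2 fold changes of the members ran from −0.52 to 0.10.

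An interaction term, with mouse in the model, tested if a label's difference was unlike the one granule neurons showed. Of 120 combinations of a member and a label, 0 passed the adjusted threshold with edgeR (background 0.00364%) and 0 with DESeq2 (background 0.019%), with 4 at an unadjusted p under 0.05 by each. The 4 by edgeR were *Tenm3* and *Tenm4* in Pvalb-Chrm2, *Tenm3* in VA and *Adgrl2* in Sln. For *Tenm3* in PCs, the log2 difference of differences was 0.40 (SE 0.53, adjusted p = 1.00 by edgeR), and −0.14 without WT mouse 1. A difference of *Tenm3* that is particular to PCs was thus not shown.

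Partners and relatives of these proteins were given the same test, as 20 genes listed for their roles, among them UNC5 and Robo receptors, neurexins, SHANK scaffolds, FGF receptors, a contactin, a glypican and G protein subunits. Of 260 combinations with a label, 200 passed the filter and edgeR called 0 of them, with 4 at an unadjusted p under 0.05. SCA1 and WT mice did not overlap in 10 of the 200 (5.0%), 3 higher and 7 lower in SCA1 mice, beside the backgrounds of 2.57% and 2.62%. In PCs 17 of the 20 passed the filter, edgeR called 0, and 2 had an unadjusted p under 0.05.

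These 2 were lower in all SCA1 mice. *Unc5b*, a netrin receptor that FLRTs bind, stood at 10.6, 7.9 and 3.6 CPM in PCs of the SCA1 mice and 23.7, 14.5 and 25.2 CPM in those of the WT mice, on 6 to 77 UMIs a mouse. Its log2 fold change was −1.54 (SE 0.39) with an adjusted p of 0.270 by edgeR. *Shank2*, the scaffold protein to which latrophilin tails bind, stood at 1116, 1169 and 1562 CPM in the SCA1 mice against 1683, 1994 and 2305 CPM in the WT mice (1282 ± 243 against 1994 ± 311, log2 fold change −0.63, SE 0.24, adjusted p = 0.597 by edgeR). *Unc5a*, also lower in all SCA1 mice, was at most 3.38 CPM and did not pass the filter. Over all genes tested in PCs, the genotypes did not overlap in 5.16% (SCA1 higher) and 5.1% (SCA1 lower).

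Within the SCA1 mice, PC nuclei in which a UMI of human *ATXN1* was seen were set against those without one. They numbered 10, 10 and 11 against 55, 42 and 18 in mice 1, 2 and 3, and the nuclei with it were the deeper ones (medians of 41307, 34274.5 and 58288 against 37282, 7287.5 and 56243.5 UMIs). Sums were compared with mouse as a term, and 114 of 7817 genes were called (1.46%), 100 lower and 14 higher with human *ATXN1* (1.28% and 0.179%). Of the members, 8 were tested, all but *Flrt1* and *Flrt2*, and *Tenm1* was called lower.

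*Tenm1* held 69.1, 85.5 and 27.1 CPM in nuclei with human *ATXN1* and 129.5, 119.2 and 77.6 CPM in those without, lower in 3 of 3 mice (log2 fold change −0.93, SE 0.23, adjusted p = 0.0319 by edgeR). The granule neuron markers were lower in the same sums, at 138.1, 117.9 and 39.2 CPM with and 253.3, 173.7 and 57.0 CPM without. So were the sums of the BG markers (66.8, 32.4 and 18.1 CPM with against 71.7, 100.5 and 20.5 CPM without) and the PC markers (10499, 11182 and 12432 CPM with against 13701, 13197 and 20974 CPM without). *Itpr1* made up most of the PC sum (5824, 6810 and 8510 CPM with). *Pcp2* and *Ppp1r17* were higher with human *ATXN1* in mice 1 and 2 and lower in mouse 3. Molecular layer interneuron markers summed to 643.9, 504.1 and 432.8 CPM with against 597.5, 548.4 and 636.5 CPM without, higher in mouse 1 only. The part of none of these was tested. A single nucleus gave 48.3 to 66.7% of the *Tenm1* UMIs with human *ATXN1* and 26.9 to 65.1% of those without. DESeq2 gave a log2 fold change of −0.95 with no adjusted p, and the adjusted p by edgeR was 0.0948 without mouse 1 and 0.222 without mouse 3.

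*Tenm3* held 365.4, 1249.9 and 1687.5 CPM in nuclei with human *ATXN1* and 481.3, 481.0 and 616.0 CPM in those without, higher in 2 of 3 mice and lower in mouse 1. Its log2 fold change of 0.85 (SE 0.23) had an adjusted p of 0.0762 by edgeR, and without mouse 1 it was 1.44 with an adjusted p of 5.9e-08. The fit without mouse 1 rested on sums of 2 mice only, and its share of all genes called is not given here, so this p is weak support. A single nucleus gave 48.8, 41.5 and 33.5% of the *Tenm3* UMIs in the nuclei with human *ATXN1* of mice 1, 2 and 3. *Adgrl3* held 225.0, 171.0 and 164.4 CPM with and 173.5, 183.8 and 115.2 CPM without (log2 fold change 0.28, SE 0.18, adjusted p = 0.662 by edgeR). The remaining members were between −0.26 (*Tenm2*) and 0.06 (*Adgrl1*) on the log2 scale, and the partner *Shank2* was at −0.50 (SE 0.14, adjusted p = 0.103 by edgeR).

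**Figure D5:**
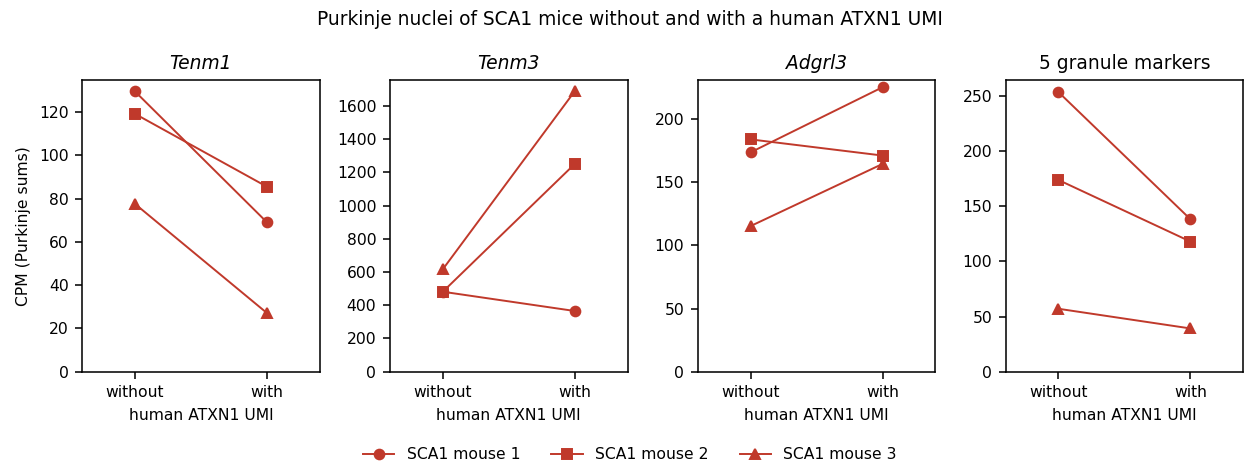
CPM of *Tenm1*, *Tenm3*, *Adgrl3* and the sum of 5 granule neuron markers in PC nuclei without and with a human *ATXN1* UMI, with a line for each of 3 SCA1 mice. *Tenm1* and the granule markers are lower with human *ATXN1* in all 3 mice, while *Tenm3* is higher in mice 2 and 3 and lower in mouse 1.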

How the data were processed

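Single nuclei of whole cerebella of 3 SCA1 and 3 WT mice were analysed. The authors deposited tables of whole-number UMI counts (genes by nuclei, not normalized) with a SingleR label (from a cerebellar DropViz reference) and a cluster number for every nucleus. CellRanger had been used for alignment to mm10 plus the human *ATXN1* locus, introns were counted, and DIEM removed debris (the submitters' notes name Cell Ranger 4.0.0, 5.0.1 and 6.0.1, R 4.1.0 and Seurat 4.0.4). Genotypes and replicate numbers came from the sample labels, and batch was inferred from library numbers. That the mice were separate animals comes from the labels. Whether strand was used in counting is not given in the sources used here. Doublets were not called.

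Counts were summed per mouse and label wherever every mouse had at least 10 nuclei. Sums were tested with edgeR 4.0.16 in R 4.3.3 (quasi-likelihood, batch and genotype as terms, TMM, filterByExpr at a count of 10 and total of 15) and called where p, adjusted by Benjamini-Hochberg over all genes of the label, was 0.05 or less. The interaction and the human *ATXN1* split had mouse as a term. Nuclei were not used as replicates, unlike in the study's own test, which was not run. There were 3 mice of each genotype, and PC sums held 829529 to 3240844 UMIs. What limited the precision was not tested. Intervals and SEs cover the spread between mice. Alternatives were DESeq2 1.42.0, limma-trend (limma 3.58.1), RLE factors, library size only, no filter, no batch term, a replicate block, nuclei of at least 3000 UMIs, nuclei whose label was also their cluster's most frequent one, thinning to 3000 UMIs and each mouse left out. The code was tested on simulated data. In simulated PC sums of SCA1 against WT mice with 200 genes changed, edgeR recovered 19 of 96 2-fold changes (19.8%) and 81 of 88 4-fold changes (92.0%), with 12 false calls. For the interaction of PCs and granule neurons it recovered 7 of 96 (7.29%) and 57 of 97 (58.8%), with 15 false calls. With so many changed genes the adjusted threshold is easier to pass than where few genes differ. A count of 0 called members therefore does not show that their levels were equal. Python 3.11.15, numpy 2.4.6, pandas 2.3.3, scipy 1.17.1 and matplotlib 3.10.9 were used. Spans are from GENCODE's annotation of GRCm38, matched by symbol, and promoter windows from RefSeq (GRCm38.p6), with no window matched for *Flrt1*.

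All 10 members are named. Values of a partner gene are given where it was called or where the genotypes did not overlap in PCs, and for each member the 3 genes of the most similar pattern (mean of at least 10 CPM in a label) are named. The members, the lists and the tests were chosen with earlier results of these data known.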

Additional observations from a re-analysis of the deposited data

How the results depend on the processing

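Of the count of members called between SCA1 and WT mice (0 of 111), 12 of 15 alternatives gave 0 as well. DESeq2 called 1 and the fit without a filter 2, *Tenm3* in PCs (adjusted p = 0.0330) and in Pvalb-Chrm2 (adjusted p = 0.0203), beside 0.137% of all combinations. A replicate block, the number of the mouse instead of batch, called 1, *Tenm3* in PCs (adjusted p = 0.0106), in a label where that fit called 1.75% of genes, and gave 13 of the 111 an unadjusted p under 0.05, against 4 with batch. Same-numbered mice deviated together, every pair over 0.1, in 6 of 13 labels but not in PCs, where the pairs were at 0.67, 0.067 and 0.50, so the numbers were not taken to pair the mice. In 5 labels each mouse correlated best with its own number. The interaction count was 0 to 1 with a mouse left out, the 1 being *Tenm1* in Pvalb-Cadm1 without WT mouse 1 (log2 1.42, adjusted p = 0.00278 by edgeR). That fit gave 24 of the 120 combinations an unadjusted p under 0.05, against 4 with all mice. Its share of all genes called is not given here. The count of members called between PC nuclei with and without human *ATXN1* (1 of 8) was 2 without a filter (1.07% of genes), 0 with no replicate block and 0 to 1 with a mouse left out. With DESeq2 it was 0, but only 694 genes had an adjusted p there, of which 49 were called (7.06%). *Tenm1* had no adjusted p in that fit, so it could not be called. Without SCA1 mouse 1 the called member was *Tenm3* and not *Tenm1*, and without SCA1 mouse 3 there was none. Each of these fits with a mouse left out rested on 2 mice, and their shares of all genes called are not given here. The count of combinations whose shares of nuclei did not overlap was 9 after thinning against 2. With nuclei on which label and cluster agree, 6 of the 10 members kept their highest label. For these nuclei 6 labels could not be summed in every mouse: Nrgn, Sln, Lgi2, Pvalb-Rab3b, Pvalb-Chrm2 and Dcn.Nnat. The highest labels of *Tenm2*, *Tenm3*, *Flrt1* and *Flrt2* were among them and could not be checked. Pvalb-Rab3b held 0 agreeing nuclei in every mouse, and Pvalb-Chrm2 held them in SCA1 mouse 1 only (38 nuclei). The highest label was kept by 7 members with library size only and by 8 to 10 with a mouse left out (8 without WT mouse 3). With library size only, *Adgrl1* was highest in Pvalb-Rab3b (143.8 CPM), *Tenm4* in Lgi2 (1086) and *Flrt3* in Nrgn (54.0), and the PC level of *Adgrl2* was 224.1 CPM. Directions turned with a mouse left out for *Tenm1* in PCs (−0.97 to 0.49), *Adgrl3* in BG (−0.22 to 0.14), *Tenm1* in granule neurons (−0.093 to 0.32) and the interaction of *Tenm3* in PCs (−0.14 to 1.00). The turned values were 0.12 and 0.14 for *Adgrl3* in BG, without SCA1 mouse 2 and WT mouse 3, and −0.05 and −0.093 for *Tenm1* in granule neurons, without SCA1 mouse 3 and WT mouse 2. The cause of these changes was not tested. At this depth 19 combinations of a member and a label did not pass the filter on low counts.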
